A study of Mus musculus with 12 samples.

Results

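The genes of the mouse mitochondrial genome were taken as every gene whose symbol begins with mt- in the authors' deposited tables of Dis3l wild-type against knockout comparisons. The blastocyst table held 37 such genes among 45706, namely 13 protein-coding genes, 2 ribosomal RNA genes and 22 transfer RNA genes. The ES cell table held 7 among 13009, all of them protein-coding. These were also the only genes that either table placed on the mitochondrial chromosome, and all 37 had the same coordinates in GENCODE M21 on GRCm38.

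Dis3l is one of the nucleases of the exosome that trims and destroys RNA in the cytoplasm. The labels list 4 groups of 3 samples: Dis3L WT and Dis3L KO blastocysts, collected 96 h after the hCG injection of superovulated females, and Dis3L WT and Dis3L KO embryonic stem (ES) cells. Each blastocyst library came from a single embryo and was made by Tn5 tagmentation of cDNA. ES cell lines were derived from blastocysts on inactivated mouse embryonic fibroblasts and grown with serum and LIF, and their libraries were stranded and depleted of ribosomal RNA. The labels used here give no strain, sex or number of lines, and do not say what the Dis3l allele is. Nothing in them says whether the 3 ES cell samples of a group are separate lines, so p-values there measure the spread between samples, which may be technical.

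The mitochondrial genome is a small circular DNA that is transcribed on both strands into long precursors, which are cut at the transfer RNAs into ribosomal, messenger and transfer RNAs. Its proteins are core subunits of the respiratory chain and of ATP synthase, and all other subunits are encoded in the nucleus. Oocytes pass on a large store of mitochondria, and embryos before implantation transcribe it without replicating the DNA. Its transcripts are made and degraded inside the organelle, whereas the exosome that contains Dis3l acts in the cytoplasm.

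Both tables hold comparison results only, with a mean over libraries of normalised counts, a log2 fold change, its standard error and p-values. Neither table says which genotype is the numerator, so signs are given as deposited: a gene with a positive log2 fold change was higher on what is called here the positive side. Because such a mean adds up whole reads divided by each library's size factor (its relative depth), the reads of many genes could be recovered for each library that entered the mean, called a count column here. The blastocyst table rested on 6 count columns, 3 a side, with size factors between 0.695 and 1.62. The ES cell table rested on 4, 2 a side, with size factors between 0.759 and 1.25, although the labels list 6 ES cell samples. Which genotype or sample a column belongs to is not known. For Dis3l itself, the ES cell reads were 14 and 8 (positive side) against 39 and 39 (negative side), and the blastocyst reads 26, 8 and 0 against 10, 4 and 8.

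Several mitochondrial genes share bases with a neighbour or with a nuclear copy, which bears on how reads can be counted for them. The stretches below are printed 5′ to 3′ from GENCODE M21 transcripts on GRCm38. Capitals mark the bases that mt-Atp8 and mt-Atp6 share, 43 in all (chrM:7907-7989, plus strand), and those that mt-Nd4l and mt-Nd4 share, 7 in all (chrM:10147-10193, plus strand).
Atp8-Atp6: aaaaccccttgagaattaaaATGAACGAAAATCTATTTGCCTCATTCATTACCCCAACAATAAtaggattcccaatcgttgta
Nd4l-Nd4: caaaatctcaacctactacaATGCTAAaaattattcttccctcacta

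A block on nuclear chromosome 1 (chr1:24611535-24616188, minus strand) holds 7 annotated pseudogenes that run in the same order as the mitochondrial genes from the end of mt-Co1 to mt-Nd4 (chrM:6390-11042). Gm28661 was identical to mt-Co2 over 681 bases, Gm10925 to mt-Atp6 over 678, Gm28437 to mt-Co3 over 783, Gm10222 to mt-Nd4l over 294, and Gm28439 to the first 876 bases of mt-Nd4. The position of mt-Atp8 also falls inside this block, at chr1:24614609-24614812; Gm10925 covers the 43 bases of it that mt-Atp8 shares with mt-Atp6, and no copy is annotated for the rest. The other 2 pseudogenes differed from their mitochondrial gene at 1 base each, in capitals below. The change in mt-Nd3 is T3C and that in mt-Co1 is A1066T, with the mitochondrial base first and positions counted from 1 at the gene's 5′ end. The 4 stretches lie at chrM:9459-9481 (plus strand), chr1:24613097-24613119 (minus strand), chrM:6390-6413 (plus strand) and chr1:24616165-24616188 (minus strand).
mt-Nd3: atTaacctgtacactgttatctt
Gm28438: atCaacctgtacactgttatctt
mt-Co1: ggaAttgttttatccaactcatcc
Gm29216: ggaTttgttttatccaactcatcc
A second set of less similar copies lay on chromosome 2, among them Gm13340, 97.6% identical to mt-Co1 over its 1545 bases, and Gm13341, 95.9% identical to mt-Co2. None of these pseudogenes is in the ES cell table.

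In blastocysts the mitochondrial genes made up 4.59% of the summed means of the authors' deposited table, and a single gene, mt-Rnr2, made up 74.5% of that part. The mt-Rnr2 gene (ENSMUSG00000064339.1, chrM:1094-2675) encodes the large ribosomal RNA of the mitochondrial ribosome and reached a mean of 99700 normalised counts per kb. The small ribosomal RNA gene mt-Rnr1 (ENSMUSG00000064337.1, chrM:70-1024) stood at 5480 per kb, so mt-Rnr2 was 18.2 times higher per length although both belong to the same ribosome. The 13 protein-coding genes together held 1.06% of the summed means.

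Per length, the protein-coding genes of blastocysts fell into a high and a low set. The high set had 7 genes between 2842 and 9020 normalised counts per kb: mt-Co1 at 9020, mt-Nd1 at 8603, mt-Cytb at 6984, mt-Nd4 at 3803, mt-Nd5 at 3655, mt-Nd2 at 3550 and mt-Nd6 at 2842. The low set had 6 genes between 69.96 and 807 per kb: mt-Co2 at 807, mt-Co3 at 608, mt-Atp6 at 530, mt-Atp8 at 166, mt-Nd3 at 97.8 and mt-Nd4l at 69.96. A 3.52-fold step separated the lowest of the high set from the highest of the low set, whereas the steps from mt-Nd4 to mt-Nd5 and from mt-Nd5 to mt-Nd2 were 1.04-fold and 1.03-fold. The neighbours within a set were not tested against each other. Levels over libraries are the authors' means and carry no standard deviation.

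**Figure D1:**
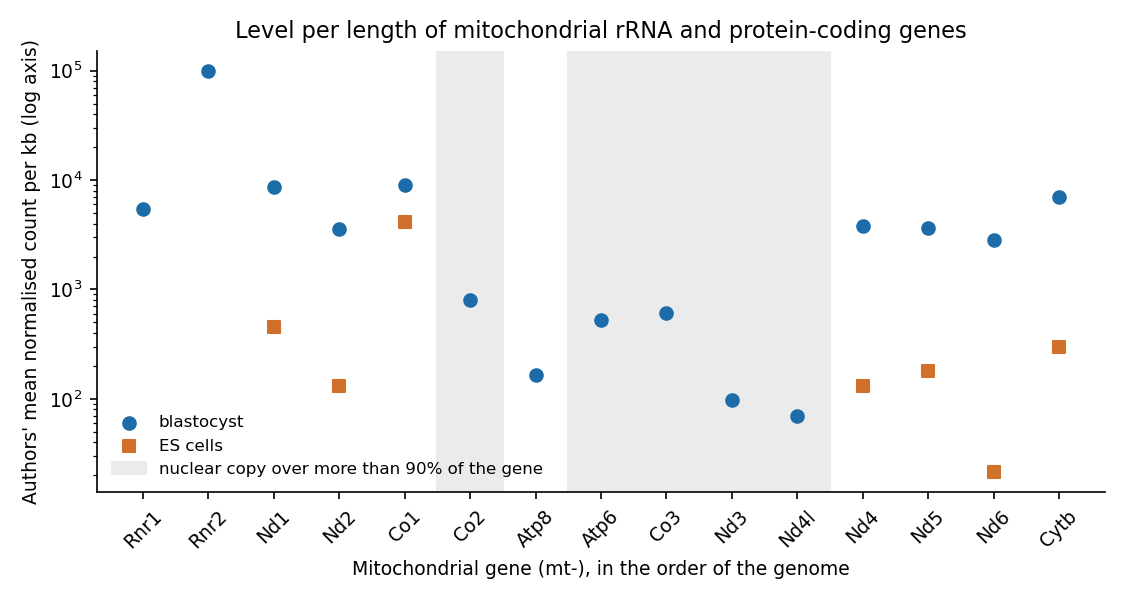
Authors' mean normalised count per kb of gene length (log axis) for the 15 ribosomal RNA and protein-coding genes in genome order, with blastocysts as circles and ES cells as squares; grey bands mark genes with a near-identical nuclear copy over more than 90% of their length. The 5 banded genes and mt-Atp8 between them lie at 807 per kb or lower in blastocysts and have no ES cell value.

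The low set coincided with the chromosome 1 block. The 5 genes with a near-identical copy over more than 90% of their length and mt-Atp8, which lies between them, were the 6 low genes, and all 6 were missing from the ES cell table. The 7 high genes were the 7 that the ES cell table lists, although mt-Nd4 and mt-Co1 also have a near-identical copy over 63.6% and 31.3% of their length. The copies themselves had counts in blastocysts: Gm28437 had a mean of 544, Gm10925 of 491, Gm28661 of 312, Gm10222 of 44.7 and Gm28438 of 32.6 normalised counts. Of the summed means of gene and copy, the copy held 53.3% for mt-Co3, 57.6% for mt-Atp6, 36.1% for mt-Co2, 68.3% for mt-Nd4l and 48.9% for mt-Nd3. Adding the copy brought mt-Co3, mt-Co2 and mt-Atp6 to 1303, 1264 and 1250 per kb, still under the 2842 of mt-Nd6. How reads that match both places were counted is not given in the sources used here, and the part of this in the low levels was not tested. The low genes were also short, from 204 bases (mt-Atp8) to 784 (mt-Co3). All high genes but mt-Nd6 (519 bases) had at least 957. The part of gene length in the low levels was not tested either.

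In ES cells the 7 genes made up 0.513% of the summed means of a table that lists protein-coding genes only. mt-Co1 (ENSMUSG00000064351.1, chrM:5328-6872), the catalytic subunit of cytochrome c oxidase, stood alone at 4103 normalised counts per kb. Next came mt-Nd1 at 458, mt-Cytb at 299, mt-Nd5 at 179, mt-Nd4 at 131, mt-Nd2 at 130 and mt-Nd6 at 21.5 per kb. mt-Nd4 and mt-Nd2 differed 1.01-fold, which is within the spread of their columns given below.

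The proportions of mt-Co1 and of mt-Nd6 differed between the materials, whose libraries were made in different ways, so the material and the library method cannot be told apart. Per length, mt-Co1 was 1.29 times mt-Cytb in blastocysts and 13.7 times in ES cells, where the 4 columns ranged from 12.3 to 15.1. The range of that ratio over blastocyst columns is not known, because the reads of those genes were not recovered. mt-Nd6 is the only protein-coding gene on the light strand and lies opposite the end of mt-Nd5, with which it shares 14 bases. Its level per length was 0.778 of mt-Nd5 in blastocysts and 0.12 in ES cells, with 0.107 and 0.0947 in the positive-side and 0.254 and 0.0475 in the negative-side columns. The ES cell libraries kept the strand of the RNA and tagmented cDNA does not. Whether the counting used strand is not given in the sources used here, and without strand the reads of mt-Nd6 cannot be told from antisense reads of the other strand. For the other 4 genes the proportions to mt-Cytb were nearer each other: mt-Nd1 was 1.23 times in blastocysts and 1.27 to 1.72 times over the ES cell columns, mt-Nd2 0.508 and 0.406 to 0.461, mt-Nd4 0.545 and 0.367 to 0.617, and mt-Nd5 0.523 and 0.499 to 0.690. The blastocyst values of mt-Nd1 and mt-Nd2 thus lay outside the ES cell columns, and none of these differences was tested.

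No mitochondrial gene passed an adjusted p of 0.05 in either comparison of the authors' deposited DESeq2 tables. In blastocysts 0 of the 16 genes with an adjusted p-value passed, where 0.0986% of all 15209 tested genes did, and in ES cells 0 of 7, where 0.261% of 10739 did. At an unadjusted p under 0.05, 4 of 16 passed in blastocysts (6.21% of all tested genes) and 3 of 7 in ES cells (5.62% of all). All 7 of these were positive, as were 2.68% of the tested genes in blastocysts and 2.21% in ES cells at that threshold. The genes are cut from shared precursors, so they are not independent of each other.

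The mitochondrial log2 fold changes were mostly positive. In blastocysts 12 of the 16 tested genes were positive in the authors' deposited table, with a median of 0.40, beside 48.3% positive and a median of −0.04 over all tested genes. Among the 13 protein-coding genes alone, 11 were positive and the median was 0.41. In ES cells 6 of 7 were positive with a median of 0.40, beside 50% and −0.00011 over all. For comparison at high expression, the 405 nuclear genes with a blastocyst mean of at least 1000 had a median of 0.04 with 56% positive. The ES cell fold changes were shrunken towards 0 by the authors' fit, so the sizes cannot be compared between tables. With the shrinkage undone in a refit of the recovered reads, the ES cell median was 0.46.

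**Figure D2:**
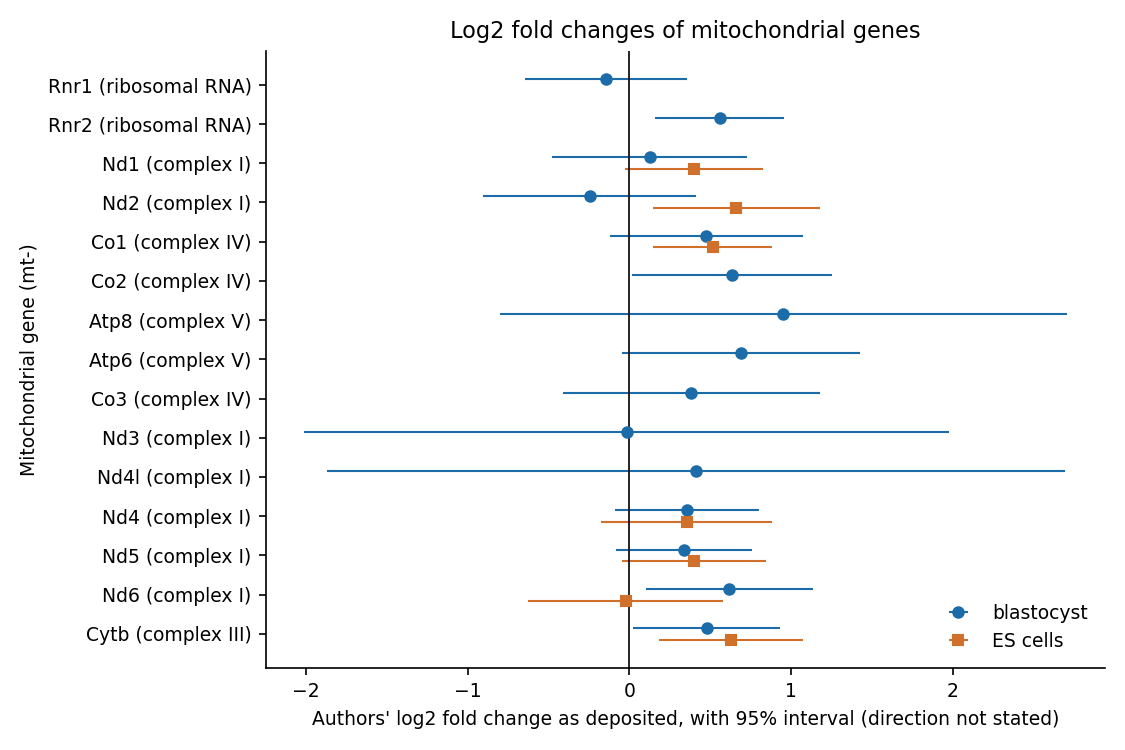
Authors' log2 fold changes, as deposited, with 95% Wald intervals for blastocysts (circles) and ES cells (squares, shrunken), by gene in genome order with the complex each belongs to. In blastocysts 12 of the 15 genes drawn lie above 0 and in ES cells 6 of 7, and the intervals of mt-Atp8, mt-Nd3 and mt-Nd4l are the widest.

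The ribosomal RNAs had values of opposite sign in blastocysts. mt-Rnr2 stood at a log2 fold change of 0.56 (standard error 0.20) in the authors' deposited table, a 1.47-fold difference with a 95% interval from 1.12 to 1.94. Its DESeq2 p was 0.00589 and its adjusted p 0.491. The mean and fold change imply 187926 normalised counts on the positive and 127526 on the negative side. mt-Rnr1 had a log2 fold change of −0.14 (standard error 0.25, DESeq2 p 0.573), with an interval from 0.64-fold to 1.28-fold. The difference between the 2 genes was not tested. Of the 9 mitochondrial genes with a mean of at least 1000, 6 had a standard error below the median of 0.28 of the 405 nuclear genes at such means; mt-Co1, mt-Nd1 and mt-Nd2 had 0.30, 0.31 and 0.34. The spread between libraries that the authors' standard errors imply ran from 17.2% for mt-Rnr2 to 28.5% for mt-Nd2, as a coefficient of variation.

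Complex I, which takes electrons from NADH, has 7 subunits encoded here, with blastocyst log2 fold changes from −0.24 to 0.62 in the authors' deposited table and 5 of 7 positive. mt-Nd6 (ENSMUSG00000064368.1, chrM:13552-14070, minus strand), a membrane subunit, had the highest value, 0.62 with a standard error of 0.26, a DESeq2 p of 0.0181 and an adjusted p of 0.668. This was a 1.54-fold difference with an interval from 1.08 to 2.19. mt-Nd4 and mt-Nd5, the antiporter-like proton-pumping subunits, had 0.36 (standard error 0.23) and 0.34 (0.21). mt-Nd1, at the entry of the quinone channel, had 0.13 (0.31), and mt-Nd2, another antiporter-like subunit, −0.24 (0.34). The intervals of mt-Nd1, mt-Nd2, mt-Nd4 and mt-Nd5 all included no change.

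The 2 short subunits mt-Nd3 and mt-Nd4l were counted in few reads. mt-Nd3 had 22.8, 42.6 and 36.6 normalised reads on the positive side against 66.8, 6.69 and 28.8 on the negative. mt-Nd4l had 24.3, 10.1 and 36.6 against 14.2, 7.80 and 31.6. The sides overlapped in both genes. Their log2 fold changes in the authors' deposited table were −0.02 (standard error 1.02) and 0.41 (1.16). The log2 ratios of the recovered reads changed sign in both genes when single columns were left out.

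Cytochrome b, the only mitochondrial subunit of complex III, was measured by mt-Cytb (ENSMUSG00000064370.1, chrM:14145-15288). Its blastocyst log2 fold change was 0.48 (standard error 0.23), with a DESeq2 p of 0.0385 and an adjusted p of 0.769 in the authors' deposited table. The implied means were 9307 and 6672 normalised counts, a 1.40-fold difference with an interval from 1.02 to 1.91.

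Complex IV, cytochrome c oxidase, has 3 subunits here, all positive in blastocysts with log2 fold changes from 0.38 to 0.64. mt-Co2 (ENSMUSG00000064354.1, chrM:7013-7696), which accepts electrons from cytochrome c, had 595, 589 and 832 normalised reads on the positive side against 400, 424 and 475 on the negative. All 3 positive-side columns lay above all 3 negative-side columns. The share of all blastocyst genes with such a split was not computed, so it cannot be called particular to this gene. The authors' deposited table gave a log2 fold change of 0.64 (standard error 0.31), a DESeq2 p of 0.0434 and an adjusted p of 0.772. mt-Co3, a structural subunit, had 648, 361 and 610 against 470, 234 and 538, with overlapping sides and a log2 fold change of 0.38 (standard error 0.40). mt-Co1 had 0.48 (0.30), with implied means of 16220 and 11653.

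In blastocysts the ATP synthase subunits had the highest log2 fold changes of the protein-coding genes. The ranking was not tested, and mt-Co2 and mt-Nd6 followed closely at 0.64 and 0.62. mt-Atp6 (ENSMUSG00000064357.1, chrM:7927-8607), part of the proton channel, had 468, 434 and 432 normalised reads on the positive side against 188, 274 and 368 on the negative. The sides did not overlap, again without a share over all blastocyst genes to set beside it. The authors' deposited table gave a log2 fold change of 0.69 (standard error 0.38) and a DESeq2 p of 0.0661. mt-Atp8, a small subunit that overlaps it, had 32.1, 48.7 and 52.6 against 14.8, 20.1 and 34.5. Here the highest negative-side column exceeded the lowest positive-side column, and the log2 fold change was 0.95 with a standard error of 0.89. With each column left out in turn the log2 ratio of reads ran from 0.47 to 0.94 for mt-Atp6, from 0.70 to 1.35 for mt-Atp8, from 0.45 to 0.72 for mt-Co2 and from 0.099 to 0.62 for mt-Co3.

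**Figure D3:**
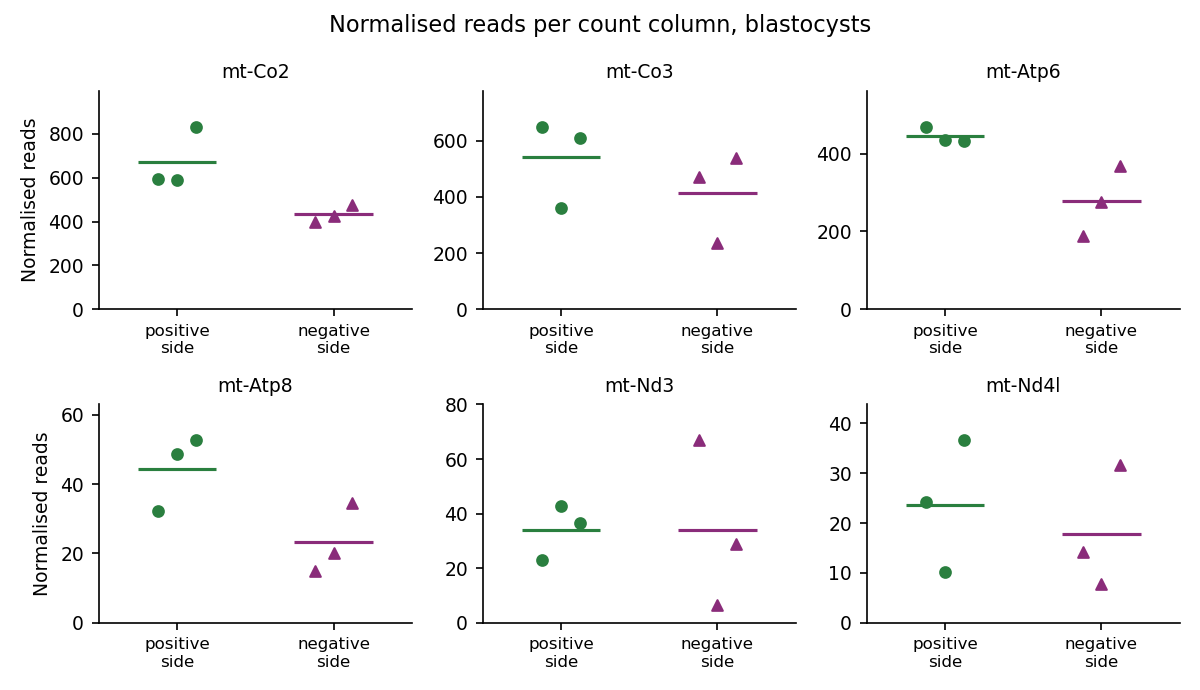
Normalised reads in each count column of the blastocyst table (points) and the mean of each side (lines) for the 6 protein-coding genes whose reads could be recovered. The sides lie apart in mt-Co2 and mt-Atp6 and overlap in mt-Co3, mt-Atp8, mt-Nd3 and mt-Nd4l.

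Adding the reads of the nuclear copies, an alternative chosen after seeing the data, left the sides apart in mt-Atp6 and mt-Co2. How often the sides lie apart over all blastocyst genes was not computed. mt-Atp6 and Gm10925 together had 1261, 952 and 1056 normalised reads on the positive side against 605, 620 and 616 on the negative, a log2 ratio of 0.83. mt-Co2 and Gm28661 together had 1142, 865 and 1147 against 680, 653 and 699, a log2 ratio of 0.63. The negative-side columns of mt-Atp6 were closer to each other after the sum (605 to 620) than before it (188 to 368). Its positive-side columns were further apart after the sum (952 to 1261) than before it (432 to 468). The share of reads given to Gm10925 ran from 40.2% to 68.9% over columns, and that given to Gm28661 from 27.5% to 47.9%. For mt-Co3 the sum had overlapping sides and a log2 ratio of 0.45, for mt-Nd4l 0.32, and for mt-Nd3 0.13, where the gene alone had −0.0031 and the summed negative side ran from 8.92 to 100.7. As separate genes the copies had log2 fold changes of 0.93 for Gm10925 (standard error 0.35, adjusted p 0.542), 0.63 for Gm28661 (0.40), 0.52 for Gm28437 (0.38), 0.27 for Gm28438 (1.14), 0.27 for Gm10222 (0.86), 0.30 for Gm28439 (0.34) and 0.71 for Gm29216 (0.34) in the authors' deposited DESeq2 table. None of these 7 passed the adjusted threshold.

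**Figure D4:**
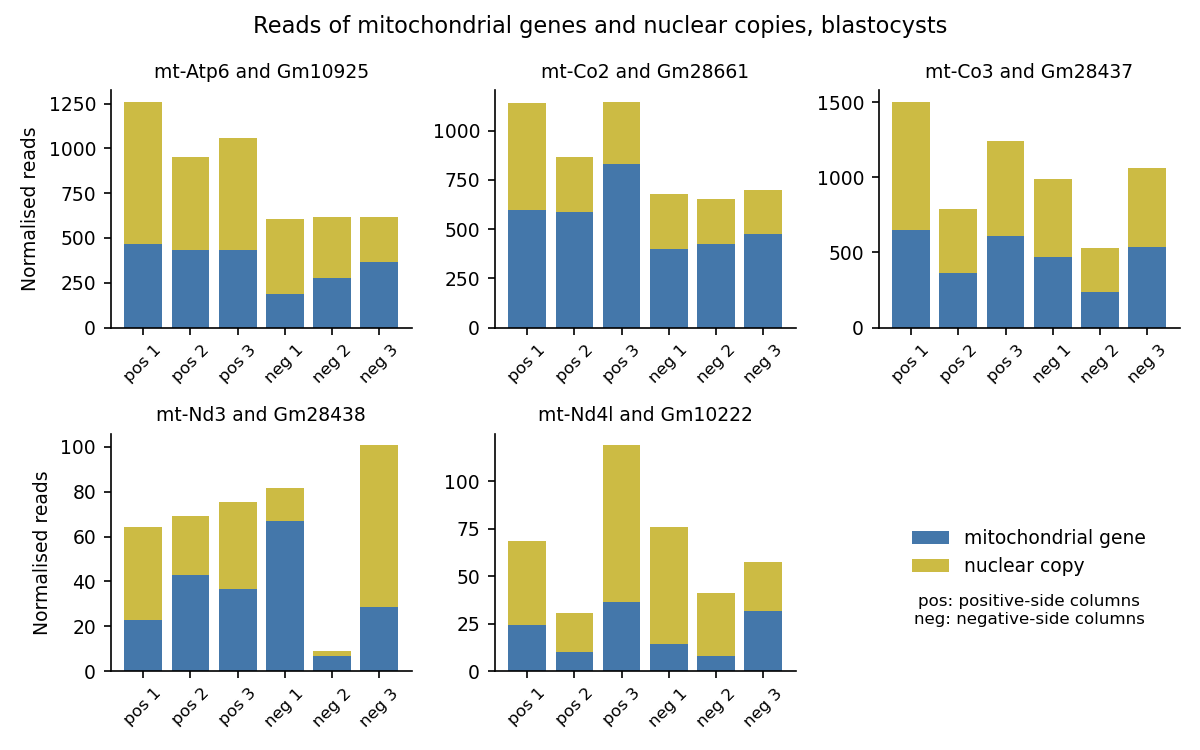
Normalised reads of 5 mitochondrial genes (lower part of each bar) and of their nuclear copies on chromosome 1 (upper part) in the 6 count columns of the blastocyst table. In mt-Atp6 and mt-Co2 each positive-side bar is taller than each negative-side bar, and the split between gene and copy varies between columns.

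Transfer RNAs were almost unmeasured. Of the 22 genes, 17 had a mean of 0 in blastocysts and the other 5 had between 1 and 12 reads over all 6 columns. mt-Tc, the cysteine transfer RNA, had 2, 4 and 0 reads on the positive and 0, 6 and 0 on the negative side. It was the only transfer RNA with an adjusted p-value. mt-Tl1 had 4 reads, mt-Tm 4, mt-Tn 2 and mt-Te 1. If each read is a separate count, a count of 0 allows up to 3 reads, which is 1.86 to 4.32 normalised reads in a single column. Of the 64 blastocyst values above 0 solved from the mean alone, 56 were even. Reads may therefore not be separate counts, and the limits may be too low. These limits cover counting error only. mt-Tc (chrM:5192-5257, minus strand) is shown whole in lower case, as the transfer RNA with the most reads:
mt-Tc: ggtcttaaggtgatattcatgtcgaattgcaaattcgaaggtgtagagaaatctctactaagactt

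In ES cells 6 of the 7 genes had both positive-side columns above both negative-side columns. Such a pattern was found in 20% of 10245 tested genes with a mean of up to 500, and in 21.1% of the 3314 with a mean of 100 to 500. mt-Co1, with a mean of 6339, lies above both ranges and has no such share beside it. Being cut from shared precursors, the 6 genes are not independent cases. Summed over the 7 genes, the positive-side columns had 9385 and 9148 normalised reads and the negative-side columns 6060 and 6498. Without mt-Co1 the sums were 1715 and 1693 against 1113 and 1214.

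mt-Cytb had 460 and 394 normalised reads on the positive side against 256 and 260 on the negative of ES cells. The authors' deposited table gave a log2 fold change of 0.63 (standard error 0.23), a DESeq2 p of 0.00554 and an adjusted p of 0.378. mt-Co1 had 7670 and 7455 against 4947 and 5285, with 0.51 (standard error 0.19), a DESeq2 p of 0.00596 and an adjusted p of 0.393. In both genes the columns of a side lay close together compared with the distance between sides.

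Of the complex I genes, mt-Nd2 had 180 and 165 normalised reads against 98.9 and 95.7, with a log2 fold change of 0.66 (standard error 0.26), a DESeq2 p of 0.012 and an adjusted p of 0.534. mt-Nd1 had 487 and 528 against 363 and 375 (log2 fold change 0.40), and mt-Nd5 366 and 391 against 263 and 286 (0.40). mt-Nd4 had 212 and 205 against 113 and 193, so its 0.35 depended on 1 column: the log2 ratio of reads was 0.11 without the first negative-side column and 0.88 without the second. mt-Nd6 had only 14 and 8 reads against 20 and 4, with overlapping sides and a log2 fold change of −0.02 (standard error 0.31). The 5 values in this paragraph are those of the authors' deposited table, and the 95% intervals of all but mt-Nd2 included no change.

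**Figure D5:**
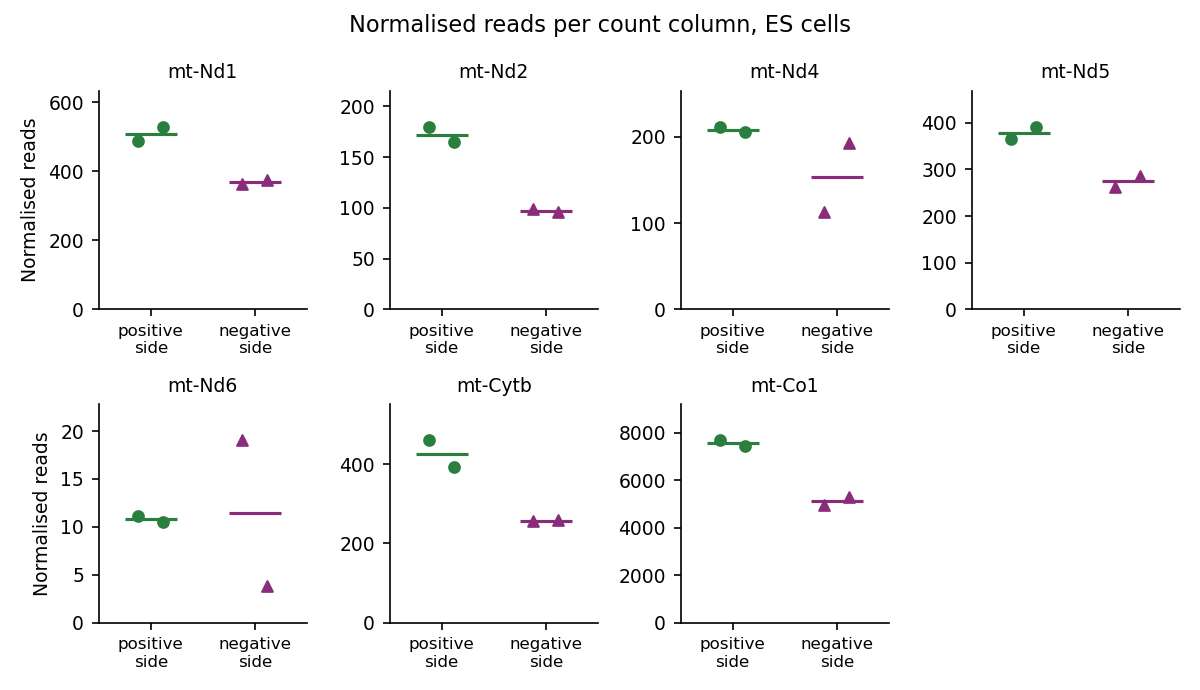
Normalised reads in each count column of the ES cell table (points) and the mean of each side (lines) for the 7 mitochondrial genes. The sides lie apart in 6 genes and overlap in mt-Nd6, whose negative-side columns are at 19.0 and 3.87.

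The second negative-side column of ES cells stood apart in fibroblast genes. The 8 listed fibroblast markers summed to 1901 normalised reads there and to 474 to 509 in the other 3 columns, and none of the 8 was at 0 in the table. Their log2 fold changes had a median of −0.29 with 1 of 8 positive, and Col1a1 had the smallest p, at −0.92 (DESeq2 p 0.0056, adjusted p 0.378, the authors' deposited table). The first negative-side column had fibroblast markers at 485 and a mitochondrial sum of 6060, where the second had a mitochondrial sum of 6498. Without the second column the log2 ratio of reads was 0.74 for mt-Cytb, 0.61 for mt-Co1, 0.80 for mt-Nd2, 0.48 for mt-Nd1 and 0.52 for mt-Nd5, against 0.73, 0.56, 0.82, 0.46 and 0.46 with it. mt-Nd4 moved from 0.44 to 0.88 and mt-Nd6 from −0.08 to −0.81. The ratios without the second column rest on 1 negative-side column. The part of fibroblast RNA in the mitochondrial values was not tested.

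Markers of the embryo's cell types also varied, with 0 adjusted calls in either of the authors' deposited DESeq2 tables. Pluripotency markers had a median log2 fold change of −0.32 in ES cells with 0 of 8 positive, where Pou5f1 was at −0.42 (DESeq2 p 0.079). In blastocysts their median was −0.33 with 2 of 8 positive. At an unadjusted DESeq2 p under 0.05, 3 of the 8 were negative and 0 positive in blastocysts. Among them were Tdgf1 at −1.75 (DESeq2 p 0.000459, adjusted p 0.205) and Nanog at −1.93 (DESeq2 p 0.00863, adjusted p 0.546). Blastocyst trophectoderm markers had a median of 0.07 with 4 of 8 positive, and its keratins Krt8 and Krt18 were at −0.87 (p 0.0146) and −0.63 (p 0.0289). Gata3, named after its value was seen, was at 0.52 (p 0.0419). In blastocysts 1 of 5 primitive endoderm markers was positive, namely Sox7 at 3.27 (p 0.00226), with a median of −0.16. In ES cells the 4 tested trophectoderm markers had a median of −0.44 with 1 positive, Tfap2c at 0.91 (p 0.00584), and the 1 tested primitive endoderm marker, Pdgfra, was at 0.16. Of the 8 fibroblast markers 5 were at 0 in blastocysts, and among the 3 tested Pdgfrb was at 2.14 (p 0.174). The part of cell makeup in the mitochondrial values was not tested. In bulk samples fewer cells of a type and less RNA per cell cannot be told apart.

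The 7 genes that both tables list can be set side by side, with the ES cell shrinkage undone. mt-Cytb was at 0.48 in blastocysts and 0.73 in ES cells, mt-Co1 at 0.48 and 0.56, mt-Nd1 at 0.13 and 0.46, mt-Nd4 at 0.36 and 0.45, and mt-Nd5 at 0.34 and 0.46. mt-Nd2 was at −0.24 and 0.83, and mt-Nd6 at 0.62 and −0.07 (standard error 0.99 in ES cells). Because neither of the authors' deposited tables names its numerator, it is not known whether a positive value stands for the same genotype in both. Like or unlike signs between materials therefore cannot be read as such, and differences between them were not tested.

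The nuclear genes for the same complexes were mostly negative in blastocysts and about evenly split in ES cells. Of 73 tested nuclear genes listed for complexes I, III, IV and V, 0 passed the adjusted threshold in either table. The complex V list includes Atpif1, an inhibitor of ATP synthase and not a subunit. The median log2 fold change of the 73 was −0.15 in blastocysts (22 of 73 positive) and 0.0036 in ES cells (38 of 73 positive). By complex the blastocyst medians were −0.24 for complex I, −0.42 for complex III, 0.03 for complex IV and −0.15 for complex V. Uqcrc1, a core subunit of complex III, had the smallest p among them, with a log2 fold change of −0.77 (standard error 0.37, DESeq2 p 0.038, adjusted p 0.769, the authors' deposited table). In the other complexes the smallest p belonged to Ndufb10 (complex I) at −1.28, Cox5a (complex IV) at 0.45 and Atp5o (complex V) at −0.51. In ES cells it belonged to Ndufb11 at −0.52, Uqcrb at 0.41, Cox7b at −0.46 and Usmg5 at 0.36, in the order of complexes I, III, IV and V. Whether these nuclear genes and the mitochondrial genes differ was not tested.

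Nuclear genes that transcribe, process, degrade, modify and translate mitochondrial RNA, keep its DNA or regulate the making of mitochondria also held 0 adjusted calls among 64 tested in blastocysts and 63 in ES cells. Their median was −0.22 in blastocysts with 20 of 64 positive, and 0.07 in ES cells with 38 of 63 positive. By function the blastocyst medians were −0.29 for transcription (1 of 6 positive), −0.09 for RNA processing (4 of 10), −0.38 for RNA stability and decay (1 of 8), −0.35 for modification of ribosomal and transfer RNAs (4 of 13), −0.54 for translation (1 of 12), 0.29 for DNA maintenance (6 of 9) and 0.28 for regulators of mitochondrial biogenesis (3 of 6). The ES cell medians of the same lists lay between −0.15 and 0.18. Among the RNA stability and decay genes, Rexo2, which degrades short RNAs in mitochondria, was at −1.27 in blastocysts (standard error 0.58, DESeq2 p 0.0291, adjusted p 0.746, the authors' deposited table). Tbrg4, an RNA processing gene, was at −0.79 (p 0.036) and Nrf1, a transcription factor for nuclear respiratory genes, at −0.70 (p 0.0486). In the other lists the smallest p belonged to C1qbp (translation) at −0.52, Nsun4 (modification) at 1.51, Tk2 (DNA maintenance) at 1.22 and Mterf3 (transcription) at 0.78. In ES cells Trnt1, which adds the CCA end to transfer RNAs, was at 0.75 (standard error 0.28, DESeq2 p 0.00672, adjusted p 0.422). In the other ES cell lists the smallest p belonged to Polg (DNA maintenance) at −0.39, Grsf1 (RNA processing) at −0.37, Mtif2 (translation) at 0.37, Pnpt1 (RNA stability and decay) at 0.29, Gabpb1 (biogenesis) at 0.28 and Tfam (transcription) at −0.22.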

How the data were processed

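RNA sequencing of 12 samples was used. The authors' tools, per the submitters' processing notes, were STAR 2.4.0b, bedtools, SAMtools, featureCounts, Subread 2.0.1 and DESeq2 1.34.0, with GRCm38; roles and settings are not given in the sources used here. The authors deposited one DESeq2 result table per material: a signal column with the mean of normalised counts, log2 columns with the log2 fold change and its standard error, a score column with the Wald statistic, and p-value columns (p and adjusted p), per the file headers. There were 0 columns of values per sample, so the planned count test was replaced by the authors' own statistics.

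From these, levels per kb, 95% Wald intervals and medians were computed. Reads per count column were solved from the means. Above a mean of 46 the blastocyst search took even reads with at most 1 odd column, since 56 of the 64 values above 0 solved from the mean alone were even; what 1 count stands for is not given in the sources used here. Where several solutions were found, the one whose refitted log2 fold change came within 1e-06 of the authors' was taken. The reads of all 7 ES cell and 11 of 20 blastocyst genes with a mean above 0 were recovered. The other 9, with means above 1000, were not searched. One penalty on the fold change gave back the authors' values in 30 of 30 ES cell genes drawn, which is the shrinkage undone here. For unsolved genes side means were derived from mean and fold change. On simulated data the mean alone gave back the reads of 100% of 200 genes per table. The size factors and sides were given in all simulations, so how these were found was not tested. The search with the fold change was used for mt-Atp6, mt-Co2, mt-Co3, mt-Co1 of ES cells and most larger copies. It was tested on 10 genes per table and gave back 100%. The blastocyst genes of that test were simulated with even reads, so it could not test the restriction to even reads. PCR copies cannot be told from separate molecules here, so read numbers give counting precision only.

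Nuclear copies were sought with BLAST+ 2.17.0 in GENCODE M21 transcripts, with at least 85% identity over 100 bases; 99% was called near-identical. All mitochondrial protein-coding and ribosomal RNA genes and transfer RNAs above 0 are named; listed nuclear genes are named where adjusted p is under 0.05 or, with none in a list, at the 1 or 2 smallest p; Gata3 is an exception. The genes and lists were chosen with earlier results of these data known. Python 3.11.15 with numpy 2.4.6, pandas 2.3.3 and scipy 1.17.1 was used.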

Additional observations from a re-analysis of the deposited data

How the results depend on the processing

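The count of 0 mitochondrial genes past an adjusted p of 0.05 held in both materials with the adjustment over every gene with a p-value. It also held with the adjustment over genes with a mean of at least 50. At the stricter 0.01 a count of 0 could not change, so that setting is no test. At an unadjusted p under 0.05 the blastocyst count was 4 and the ES cell count 3. The median log2 fold change of the protein-coding genes stayed positive under each alternative. In blastocysts the deposited values gave 0.38 (without overlapping genes) to 0.45 (relative to all genes). In ES cells it ran from 0.40 to 0.57 (without overlapping genes), and leaving out a count column gave 0.47 to 0.61. With the sides apart in every ES cell gene but mt-Nd6, that median could not turn negative when a column was left out. The recovered blastocyst reads cover 6 of the 13 genes, all of the low set, whose median was 0.52. Of 64 log2 ratios with a column left out, 60 kept their sign. For mt-Co2 and mt-Atp6 of blastocysts and every ES cell gene but mt-Nd6, the sides lay apart. The sign of those genes could not change when a column was left out, so their ratios are no test of it. mt-Nd4l ran from −0.056 (without the third positive-side column) to 1.10, mt-Nd3 from −0.49 to 0.94 (0.22 without the first positive-side, 0.94 without the first negative-side column), and mt-Nd6 of ES cells from −0.81 to 1.49 (without the first negative-side column). Column omission, undone shrinkage and added copies were chosen after seeing the data. No paired analysis was possible because the tables have no column per sample; for the same reason edgeR, another scaling and omission of labelled replicates were not run. Few reads limit the precision of the transfer RNAs, mt-Nd3, mt-Nd4l and mt-Atp8 in blastocysts and of mt-Nd6 in ES cells; why they had few was not tested.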
